A study of Mus musculus with 11 samples.

Results

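The comparison described here is that of the medial mandibular arch of mouse embryos at E10.5 (stages are in embryonic days) with the same region at E9.7. It used 4 of the 11 arrays of the series, which were 3 arrays titled as medial E10.5 and 1 array titled as medial E9.7. A gene was counted as higher or lower at E10.5 where the single E9.7 value lay 2-fold or more (1 on the log2 scale) beyond all 3 E10.5 values. The count is not a test, because the E9.7 group holds 1 array and has no spread of its own. Each difference below is the mean log2 signal of the 3 E10.5 arrays minus the log2 signal of the E9.7 array.

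The study profiled total RNA from dissected mandibular arches of ICR mice, an outbred strain, on Affymetrix arrays. Each arch was cut so that its distal tip gave the medial sample and the remaining bulk gave the lateral sample, and the stated aim was to compare them. The E10.5 and E9.7 medial groups shared strain, extraction kit and labelling from 3 ug of RNA, and no embryo was mutated or treated. RNA came from 40 embryos per time point, pooled, so the 3 E10.5 arrays measure the spread between arrays, which may be technical, and not the spread between embryos. The description of the cut is given for E10.5, and the labels do not say where a medial piece ended at E9.7.

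The mandibular arch is the lower part of the first pharyngeal arch and forms the lower jaw and the anterior tongue. Its mesenchyme comes mostly from the cranial neural crest, surrounds a core of mesoderm and vessels, and is covered by epithelium. Signals from that epithelium (BMP, FGF, Shh and endothelin) pattern the mesenchyme along the proximal to distal axis, and the medial piece is the distal end. Over the stages compared here the crest mesenchyme has populated the arch and the arch is growing outward.

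The medial pieces held the markers of arch mesenchyme on every array. All 6 mesenchyme markers (Twist1, Prrx1, Prrx2, Pdgfra, Msx1 and Hand2) had signals above the median of all values (4.86, the level used to filter dim genes), and their summed linear signal was 10182 to 11324 at E10.5 and 9523 at E9.7. The 5 heart markers, the muscle markers Myf5, Myod1 and Myog, and the neuronal markers Stmn2, Elavl4 and Nefl were under that level on all 4 arrays. The arrays themselves differed. The median deposited log2 signal was 2.37, 5.36 and 5.64 on E10.5 replicates 1, 2 and 3 and 5.23 on the E9.7 array, and the 18S rRNA control was brighter on replicate 1 (11.8 after normalization) than on replicates 2 and 3 (7.76 and 9.32) or at E9.7 (8.20). Signals of 42 spiked-in control probe sets were nearest to the E9.7 array on replicate 2, with a mean absolute difference of 0.110, against 0.407 for replicate 1 and 0.299 for replicate 3. The part of these array properties in the results was not tested.

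Most genes had closely similar signals at both stages, and a small set, led by Lin28a in one direction and Alx1 and Osr1 in the other, lay far apart. Of 11445 genes examined, 74 were counted higher at E10.5 (0.647%) and 42 were counted lower (0.367%), 116 in all (1.01%). The median difference over all genes was -0.00, and the median SD of the 3 E10.5 values was 0.18. Quantile normalization gives every array the same distribution of values, which largely sets that median difference. Counted differences had a median of 1.62 among the higher genes and -1.44 among the lower genes, and 22 higher and 6 lower genes were at least 4-fold apart by the mean of the E10.5 arrays. The fit of limma to the same genes, which borrows the spread of the replicated groups for the lone E9.7 array, had 178 genes at an adjusted p under 0.05 (1.56%). It used the same 4 medial arrays and the same lone E9.7 array, so it is no independent support for the count. Replicate 1 was the E10.5 array nearest to E9.7 for 74.3% of the genes counted higher and 45.2% of those counted lower, against 31.4% of all genes examined. Without replicate 1 the counts were 136 and 66, though leaving out any E10.5 array can only keep or raise them. When the deposited values were centred on each array's median instead of quantile normalized, the median of all genes moved to -0.27, and 54 genes were higher and 76 lower, so that 41.5% of counted genes were higher, against 63.8% with quantile normalization. The values as deposited, with replicate 1 far below the other arrays, had a median of -1.03 and gave 0 genes higher and 57 lower.

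**Figure D1:**
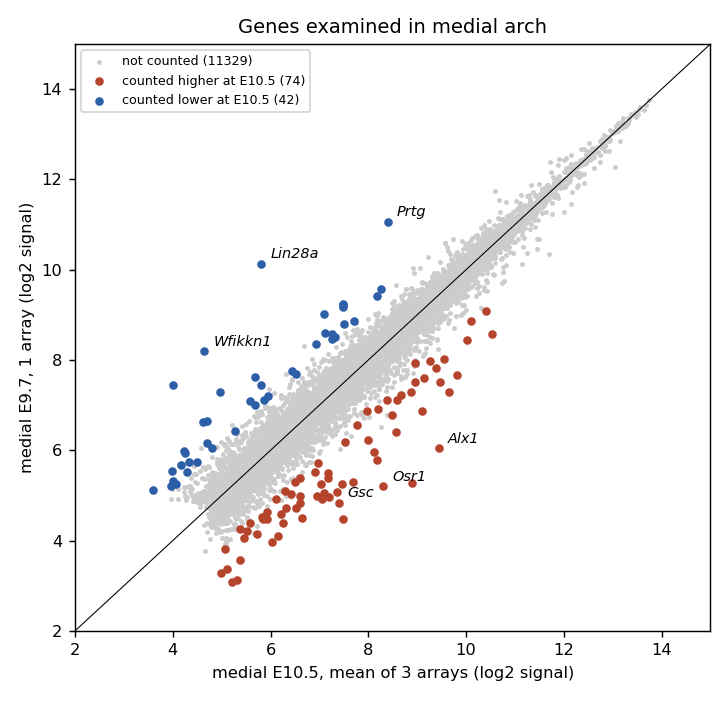
Each point is 1 of the genes examined, with the mean log2 signal of the 3 medial E10.5 arrays on the horizontal axis and the log2 signal of the medial E9.7 array on the vertical axis. Red points are the 74 genes counted higher at E10.5, blue points the 42 counted lower, and the diagonal marks equal signal; Lin28a, Wfikkn1 and Prtg lie well above it, and Alx1 and Osr1 below it.

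The count rests on a sharp limit. Just inside it were Rnd3 and Lix1, each 1.01 log2 units from the nearest E10.5 array, and Fam83f at 1.02. Just outside were Greb1 (0.998), Sall4 (0.996) and Dnajc1 (0.994). Of the 74 genes counted higher, 26 had an E9.7 signal under the filter level, and 17 of the 42 counted lower had an E10.5 median under it. Such a gene passed the filter only through the stage where it was bright, and its log2 difference is that of a clear signal and a dim one. Among the counted genes, 42 had further probe sets that reached the filter, 74 probe sets in all, and 72 of these differed in the same direction. The other two, of Nfib and Tenm2, differed by -0.06 and -0.00.

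**Figure D2:**
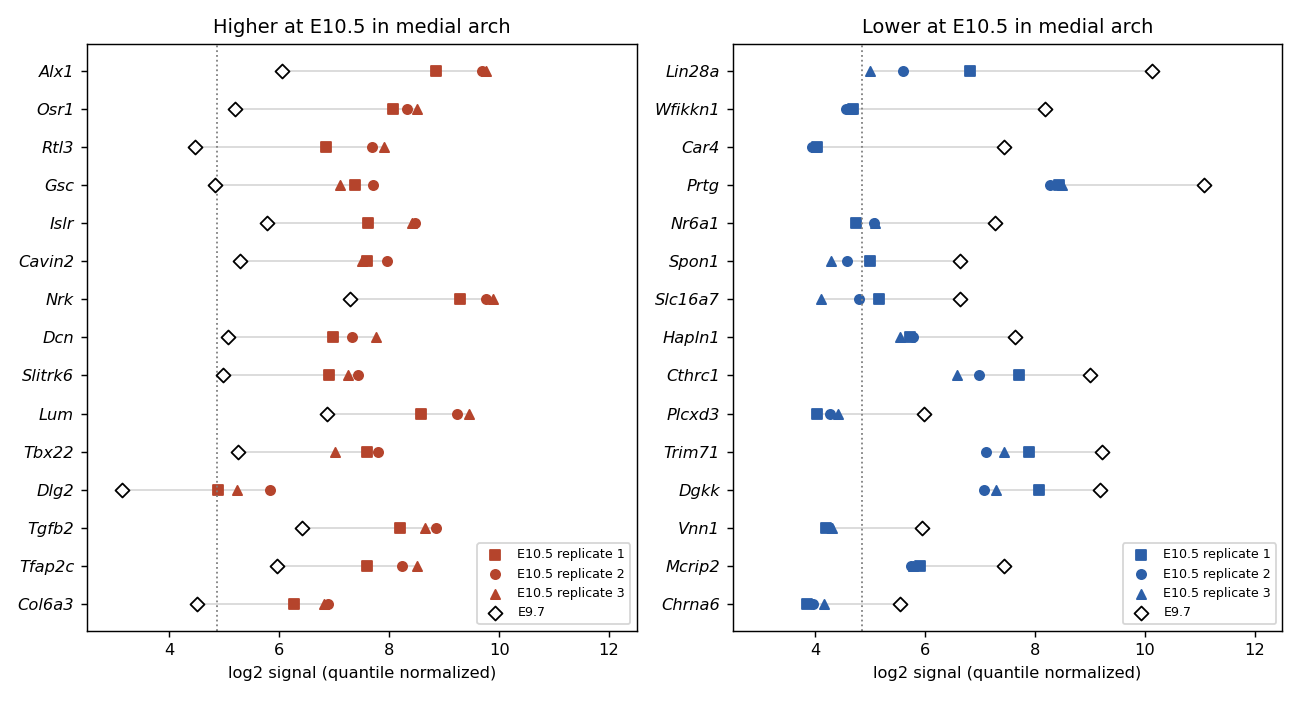
Signals on each medial array of the 15 named genes with the highest and the 15 with the lowest differences; the horizontal axis is log2 signal after quantile normalization. Filled symbols are the 3 E10.5 replicates, open diamonds the E9.7 array, and the dotted line is the filter level of 4.86. Lin28a spans 5.01 to 6.82 at E10.5 and lies at 10.13 at E9.7, whereas Alx1 spans 8.85 to 9.76 at E10.5 and lies at 6.04 at E9.7.

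The lowest differences included regulators of the early embryo. Lin28a, which encodes an RNA-binding protein that blocks maturation of the let-7 microRNAs, had log2 signals of 6.82, 5.59 and 5.01 at E10.5 and 10.13 at E9.7. The E9.7 array lay far above all E10.5 arrays, among which replicate 1 was the highest. The difference of -4.32 (SD of the E10.5 values 0.93) is a 20.0-fold lower signal and was the lowest of all genes examined, and a second Lin28a probe set had a difference of -3.15. In pooled tissue, fewer cells of a type and less RNA per cell cannot be told apart. Trim71, a let-7 target that encodes a ubiquitin ligase and repressor of messenger RNAs, had 7.89, 7.11 and 7.44 at E10.5 and 9.21 at E9.7, a difference of -1.73. Nr6a1, an orphan nuclear receptor that silences pluripotency genes in the early embryo, had 4.74, 5.07 and 5.09 at E10.5 and 7.28 at E9.7, a difference of -2.32. Its E10.5 signals sat about the filter level, and its E9.7 signal was well above it.

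The promoters of Lin28a and Trim71 are shown because both genes were counted lower in the same list. They are RefSeq sequences of assembly GRCm38.p6, on the minus strand, from 250 bases before the start of the gene to 50 after it, at chr4:134018767-134019066 for Lin28a and chr9:114564320-114564619 for Trim71. Capitals mark matches on either strand to the GC box (GGGCGG), the CCAAT box (CCAAT) or the TATA box (TATAAA).
Lin28a: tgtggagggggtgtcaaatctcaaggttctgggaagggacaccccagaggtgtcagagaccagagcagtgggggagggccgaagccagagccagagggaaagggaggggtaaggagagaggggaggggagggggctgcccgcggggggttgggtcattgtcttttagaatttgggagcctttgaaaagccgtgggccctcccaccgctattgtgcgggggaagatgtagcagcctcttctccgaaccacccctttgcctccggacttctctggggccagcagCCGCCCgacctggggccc
Trim71: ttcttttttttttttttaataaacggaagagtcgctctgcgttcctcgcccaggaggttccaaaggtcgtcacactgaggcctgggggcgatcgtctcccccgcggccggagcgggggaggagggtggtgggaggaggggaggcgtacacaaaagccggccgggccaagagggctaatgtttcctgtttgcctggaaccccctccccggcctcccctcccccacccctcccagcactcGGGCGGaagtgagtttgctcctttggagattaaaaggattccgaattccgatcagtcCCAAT
The Lin28a window held 1 GC box and neither of the other motifs, and the Trim71 window held 1 GC box and 1 CCAAT box. Their GC contents were 63.3% and 59.3%.

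The list of Lin28 and early embryonic genes had 20 members, 18 with a probe set and 14 bright enough to be examined, of which 3 were counted lower (Lin28a, Trim71 and Nr6a1) and none higher. Over all genes 0.367% were counted lower. The median difference of the list was -0.67, against -0.00 over all genes, and all 3 E10.5 arrays were below E9.7 for 10 of the 14, against 3151 of 11445 genes examined. Sall4, a zinc finger factor of pluripotent cells, had 9.04, 8.90 and 8.81 at E10.5 and 10.03 at E9.7, just short of the 2-fold limit. Dnmt3b, a de novo DNA methyltransferase, differed by -0.75, and Arid3b, a DNA-binding protein, by -0.80. Hmga2, a chromatin protein and let-7 target, differed by 0.41 in the opposite direction. The list median stayed between -0.63 and -0.69 relative to all genes under the deposited values, the centred values and without the 2 arrays of low signal. This list and the others were chosen with earlier results of these data known. Their counts and shares, here and below, are therefore descriptions only.

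Surface and secreted proteins were also among the genes counted lower. Prtg, which encodes the immunoglobulin-domain receptor protogenin, had 8.43, 8.27 and 8.48 at E10.5 and 11.07 at E9.7, a difference of -2.67 (6.37-fold lower). The SD of its E10.5 values was 0.11, and 2 further probe sets gave -2.46 and -2.92. Wfikkn1, a secreted protein that binds the growth factors myostatin and GDF11, had 4.70, 4.57 and 4.66 at E10.5, all under the filter level, and 8.19 at E9.7, a difference of -3.55. Car4, a carbonic anhydrase anchored to the cell surface, had 4.04, 3.94 and 4.02 at E10.5 and 7.44 at E9.7, a difference of -3.44. For both genes the signal was clear at E9.7 alone among the 4 arrays. The matrix proteins Spon1 (F-spondin), Hapln1 (a link protein that ties hyaluronan to proteoglycans) and Cthrc1 (a secreted collagen-repeat protein) differed by -2.01, -1.95 and -1.92. The monocarboxylate carrier Slc16a7 differed by -1.95 and the diacylglycerol kinase Dgkk by -1.70. The pantetheinase Vnn1 differed by -1.69, and the nicotinic receptor subunit Chrna6 by -1.54. Spon1, Slc16a7, Vnn1 and Chrna6 had E10.5 medians under the filter level and passed it through E9.7 alone.

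Genes of glycolysis and of ribosome building lay slightly lower at E10.5 without passing the 2-fold limit. Of 16 hypoxia and glycolysis genes examined, 0 were counted, the median difference was -0.43, and all 3 E10.5 arrays were below E9.7 for 11. Slc2a3, a glucose transporter, had 9.73 ± 0.03 at E10.5 (SD, n = 3) and 10.67 at E9.7. Pfkl, a phosphofructokinase of glycolysis, differed by -0.79, and Ldha, a lactate dehydrogenase subunit, by -0.66. All 16 ribosome biogenesis genes had negative differences, from -0.58 to -0.10 with a median of -0.40, and all 3 E10.5 arrays were below E9.7 for 14. Gnl3 and Nolc1, both nucleolar proteins, differed by -0.58 each. Over all genes examined, all 3 E10.5 arrays were below E9.7 for 3151 of 11445. The 22 cell cycle genes had a median of -0.10, and 10 genes that restrain the cycle had a median of 0.46, of which Cdkn1c, an imprinted inhibitor of cyclin-dependent kinases, differed by 0.82. None of these genes was counted in either direction, against 1.01% of all genes.

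**Figure D3:**
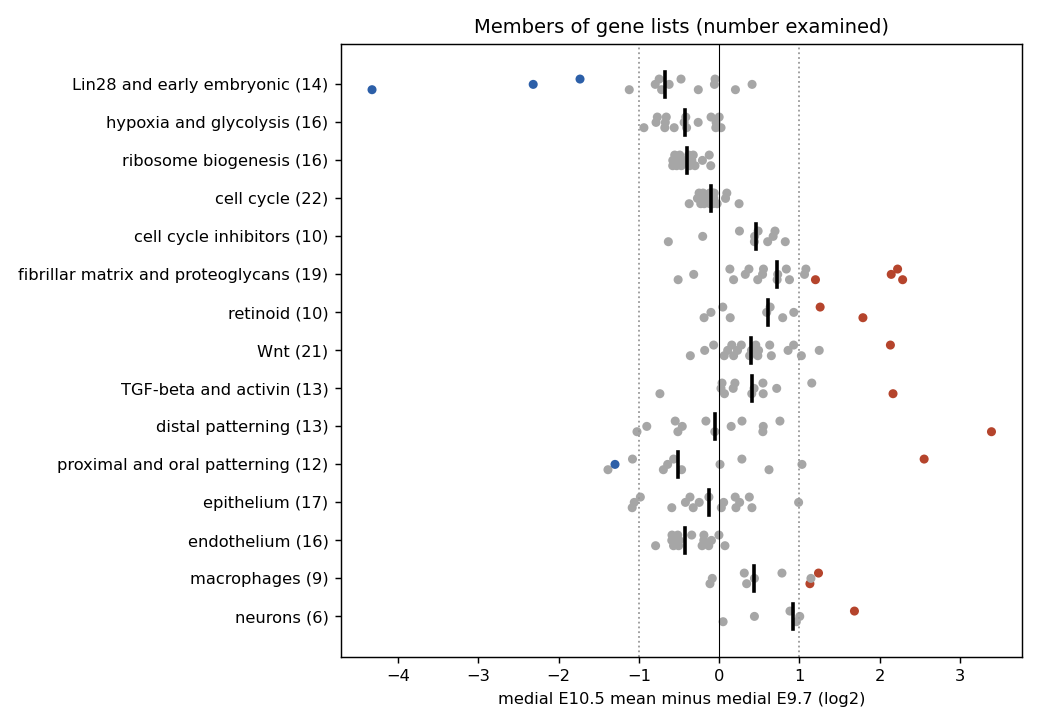
Differences of the members of 15 gene lists, with the medial E10.5 mean minus the medial E9.7 signal on the horizontal axis (log2) and the number of members examined in brackets. Each dot is a gene, red where counted higher, blue where counted lower and grey where not counted; black bars are list medians, and the dotted lines mark differences of 2-fold. The early embryonic list lies left of 0, with Lin28a at -4.32, and the fibrillar matrix list right of 0, with a median of 0.72.

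Among transcription factors, Alx1 and Osr1 had the highest differences of the named genes. Alx1, a paired-type homeobox factor of craniofacial mesenchyme, had 8.85, 9.697 and 9.76 at E10.5 and 6.04 at E9.7, a difference of 3.39 or 10.51-fold (SD of the E10.5 values 0.51), and its second probe set gave 2.71. Osr1, an odd-skipped zinc finger factor of connective tissue precursors, had 8.07, 8.33 and 8.51 at E10.5 and 5.20 at E9.7, a difference of 3.10. Gsc (goosecoid), a homeobox factor needed for parts of the lower jaw, had 7.38, 7.70 and 7.10 at E10.5 and 4.84 at E9.7, a difference of 2.55. In all 3 genes every E10.5 array was above E9.7 by more than 2 log2 units. The E9.7 signal of Gsc lay just under the filter level, so Gsc was examined through E10.5 alone. Tbx22, a T-box factor mutated in human X-linked cleft palate, differed by 2.22, and Tfap2c, an AP-2 factor of crest and surface ectoderm, by 2.15. The probe set with the highest difference of all, 3.61, belonged to the unnamed transcript AW551984, with 8.15, 9.08 and 9.43 at E10.5 and 5.28 at E9.7.

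The promoters of Gsc and of Nrk, a kinase gene described below, are shown as examples from genes counted higher; their windows lie at chr12:104473187-104473486 on the minus strand and at chrX:138914180-138914479 on the plus strand, with the same bounds, source and marking as above.
Gsc: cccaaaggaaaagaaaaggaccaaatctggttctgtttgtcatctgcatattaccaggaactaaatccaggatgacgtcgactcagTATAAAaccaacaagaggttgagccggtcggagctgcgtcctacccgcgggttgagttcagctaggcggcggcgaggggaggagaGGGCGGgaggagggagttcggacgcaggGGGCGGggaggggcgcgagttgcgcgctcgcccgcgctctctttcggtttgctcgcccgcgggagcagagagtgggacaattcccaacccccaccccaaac
Nrk: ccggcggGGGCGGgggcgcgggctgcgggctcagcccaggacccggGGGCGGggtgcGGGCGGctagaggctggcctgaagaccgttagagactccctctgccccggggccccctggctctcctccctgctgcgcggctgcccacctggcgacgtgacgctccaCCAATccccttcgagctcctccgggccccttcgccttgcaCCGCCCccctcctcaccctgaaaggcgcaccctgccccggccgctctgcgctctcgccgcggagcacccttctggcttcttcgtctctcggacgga
The Gsc window held 2 GC boxes and 1 TATA box, and the Nrk window 4 GC boxes and 1 CCAAT box. Of 75 promoters of 56 genes counted higher, 44.0% held a GC box, 52.0% a CCAAT box and 24.0% a TATA box. Of 31 promoters of 27 genes counted lower, the shares were 48.4%, 45.2% and 12.9%, and of all 32851 promoters they were 35.7%, 37.4% and 13.6%. These shares are descriptions of the windows and were not tested.

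The wider patterning lists did not share the direction of Alx1 and Gsc. Of 13 distal patterning genes, Alx1 alone was counted and the median difference was -0.05 (0.06 without the 2 arrays of low signal). Hand1 and Hand2, the basic helix-loop-helix factors of the distal arch, differed by 0.55 and 0.29, Bmp4 by 0.76, and Gata2, a zinc finger factor of the distal arch, by -1.02. Of 12 proximal and oral genes, Gsc was counted higher and Dlx2 lower, and the median was -0.52. Over all genes 0.647% were counted higher and 0.367% lower. By array, the list median was 0.137, -0.324 and -1.125 on replicates 1, 2 and 3, so its sign differed between arrays. Dlx2, a homeobox factor of arch mesenchyme, had 7.28, 7.57 and 7.67 at E10.5 and 8.80 at E9.7, a difference of -1.30. Its paralogs Dlx1, Dlx3, Dlx5 and Dlx6 differed by -1.38, -1.08, -0.57 and -0.69. The Dlx5 and Dlx6 differences rest largely on replicate 3, the lowest array for both. Dlx5 had 8.16, 7.93 and 7.22 at E10.5 and 8.34 at E9.7, and differed by -0.29 without replicate 3. Dlx6 had 7.29, 6.84 and 5.59 at E10.5 and 7.27 at E9.7, so that the stages overlapped, and differed by -0.20 without replicate 3. Dlx1 was not counted because replicate 1 (7.25) lay near E9.7 (7.70), whereas replicates 2 and 3 had 6.54 and 5.16. Lhx6, a LIM homeobox factor of the oral mesenchyme, differed by 1.03 and was not counted, with 7.26, 6.87 and 5.99 at E10.5 and 5.67 at E9.7.

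Several genes of connective tissue matrix lay higher at E10.5. Of 22 fibrillar matrix and proteoglycan genes, 21 had a probe set and 19 were examined. Of these, 4 were counted higher, against 0.647% of all genes, and none lower, and the median difference was 0.72. All 3 E10.5 arrays were above E9.7 for 14 and below it for 2. Over all 11445 genes, they were above for 2788 and below for 3151. Dcn (decorin), a small leucine-rich proteoglycan that binds collagen fibrils, had 6.99, 7.33 and 7.77 at E10.5 and 5.08 at E9.7, a difference of 2.29. Its second, dim probe set differed by 0.01, and the mean of both (1.15) was not counted. Lum (lumican), of the same family, had 8.59, 9.23 and 9.46 at E10.5 and 6.87 at E9.7, a difference of 2.22. Col6a3, a chain of the microfibrillar collagen VI, had 6.26, 6.89 and 6.81 at E10.5 and 4.51 at E9.7, a difference of 2.14. Its E9.7 signal lay under the filter level, so it was examined through E10.5 alone. For all 3 genes the lowest E10.5 array was replicate 1. The other collagen VI chains, Col6a1 and Col6a2, differed by 1.06 and 0.84, and Postn (periostin) by 1.08, none of them counted. Bgn and Lox, also in the list, differed by -0.51 and -0.32, in the opposite direction. Fbln2 (fibulin 2), a basement membrane and elastic fibre protein, was counted at 1.20, but not with centred values or the mean of its probe sets (0.71). Islr, a leucine-rich protein of mesenchymal stromal cells, differed by 2.40. The list median stayed between 0.66 and 0.78 relative to all genes under the deposited values, the centred values and without the 2 arrays of low signal.

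Igf1, the growth factor of the insulin family, had 9.06, 9.57 and 9.76 at E10.5 and 7.52 at E9.7, a difference of 1.94, and its 3 further probe sets gave 1.34 to 1.81. It was the only member counted of 13 IGF axis genes, whose median was 0.16, against 0.647% of all genes counted higher. Tgfb2, a TGF-beta ligand needed in cranial crest derivatives, had 8.21, 8.86 and 8.66 at E10.5 and 6.41 at E9.7, a difference of 2.17, whereas Tgfb1 differed by -0.74 and Tgfb3 by 0.72. The 13 genes of that list had a median of 0.41. Rspo2, a secreted amplifier of Wnt signalling, had 9.65, 9.85 and 9.91 at E10.5 and 7.67 at E9.7, a difference of 2.13. It was the only one counted of 21 Wnt genes (median 0.40), against 0.647% of all genes counted higher. Among the Wnt genes, the antagonists Frzb and Sfrp2 differed by 1.25 and 1.03.

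Retinoid metabolism had 2 of 10 genes examined counted higher, against 0.647% of all genes, with a list median of 0.61. Aldh1a2, which makes retinoic acid from retinaldehyde, had 5.75, 5.23 and 5.12 at E10.5 and 3.58 at E9.7, a difference of 1.79, with the E9.7 signal under the filter level. Dhrs3, which returns retinaldehyde to retinol, differed by 1.26, and Cyp26b1, which degrades retinoic acid, by 0.93. Among 15 BMP genes, with a median of 0.07, the secreted modulators Smoc1 and Fst (follistatin, which binds activins) were counted higher at 1.66 and 1.30. Fst had 4.52 at E9.7, under the filter level, and passed it through E10.5 alone. The chemokine Cxcl14 had 9.07, 9.02 and 8.53 at E10.5 and 7.30 at E9.7, a difference of 1.58. Nrk, a kinase of the germinal centre kinase family, had 9.29, 9.76 and 9.90 at E10.5 and 7.28 at E9.7, a difference of 2.37. Of 12 Notch genes, the target Hey2 alone was counted, with 3.95, 4.13 and 3.82 at E10.5, all under the filter level, and 5.21 at E9.7, a difference of -1.25. Over all genes 0.367% were counted lower. Dhrs3, Cxcl14 and Hey2 were no longer counted with centred values, and Fst was not when its probe sets were averaged (1.44). No gene was counted among 14 FGF, 14 hedgehog or 10 endothelin axis genes, whose medians were -0.06, 0.12 and 0.22. This lies near the share over all genes, of which 1.01% were counted.

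Markers of epithelium, vessels and red cells gave no counted genes, which lies near the 1.01% of all genes that were counted. The summed linear signal of 5 epithelial markers was 2078 to 2343 at E10.5 and 3436 at E9.7. In that list of 17 genes, with a median of -0.13, the simple keratins Krt8, Krt18 and Krt19 differed by -0.98, -1.06 and -1.08, and Cdh1 (E-cadherin) and Trp63, a factor of stratified epithelium, by 0.21 and 0.20. Endothelial markers summed to 844 to 869 at E10.5 and 1078 at E9.7. Of 16 endothelial genes, 15 had negative differences, against 5742 of 11445 genes examined, with a median of -0.42 and none counted. All 3 E10.5 arrays were below E9.7 for 9 of the 16, against 3151 of 11445. Red cell markers summed to 27501 to 29519 at E10.5 and 26529 at E9.7. The part of these cell populations in the counted differences was not tested.

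The summed linear signal of the macrophage markers was 192 to 238 at E10.5 and 130 at E9.7. Of 9 macrophage genes examined, with a median difference of 0.44, C1qa, a complement subunit, and Mrc1, the mannose receptor, were counted higher at 1.24 and 1.13, against 0.647% of all genes. Both had E9.7 signals under the filter level and passed it through E10.5 alone. The complement subunit C1qb and the chemokine Pf4 differed by -0.11 and -0.08. Csf1r, the receptor that macrophages need, had 6.75, 6.38 and 6.55 at E10.5 and 5.42 at E9.7, a difference of 1.14 that narrowly missed the limit on replicate 2, and its 2 further probe sets differed by 0.57 and 0.02. Dcx (doublecortin), a microtubule protein of young neurons, was counted at 1.69, with 4.52, 5.06 and 5.34 at E10.5 and 3.29 at E9.7, while the defining neuronal markers Stmn2, Elavl4 and Nefl stayed under the filter level. The list of neuronal genes had 15 members, 14 with a probe set and 6 examined. Dcx alone was counted (0.647% of all genes were counted higher), and it passed the filter through E10.5 alone. All 6 differences were above 0, against 5703 of 11445 over all genes examined, and the median of the 6 was 0.92. The members too dim to be examined lay in both directions, from -0.24 (Pou4f1) to 0.74 (Prph). Tubb3, a neuronal beta-tubulin, had 6.03, 6.07 and 6.09 at E10.5 and 5.10 at E9.7, a difference of 0.96, and Gap43, a protein of growing axons, differed by 0.88. The summed linear signal of the neuronal markers Tubb3, Stmn2, Elavl4 and Nefl was 124.9 to 139.8 at E10.5 and 94.5 at E9.7. Only Tubb3 among them reached the filter level, and Stmn2, Elavl4 and Nefl differed by 0.43, -0.05 and -0.15. The part of neurons in these differences was not tested. Rgs5, a marker of pericytes, had 9.20, 9.10 and 9.51 at E10.5 and 7.99 at E9.7, a difference of 1.28 that was not counted with centred values. The other pericyte genes Cspg4, Pdgfrb and Notch3 differed by 0.31, -0.28 and 0.12. Cavin2, a protein of the caveolar coat, had 7.60, 7.96 and 7.51 at E10.5 and 5.29 at E9.7, a difference of 2.40. Fabp7, a fatty acid binding protein of glial precursors, was counted lower at -1.52, and Sox10, the defining factor of early glia, differed by 0.12. Fabp7 was under the filter level at E10.5 and passed it through E9.7 alone.

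No gene was counted in the lists of adhesion, axon guidance, matrix protease, imprinted growth or muscle precursor genes, although some members lay well apart. Over all genes 1.01% were counted, so lists of this size without a counted gene lie near that share. Of 21 adhesion genes, with a median of 0.15, the atypical cadherin Fat4 had 7.37, 8.30 and 9.13 at E10.5 and 6.51 at E9.7, a difference of 1.76 that missed the count through replicate 1. Its second, dimmer probe set had 7.73, 8.17 and 8.09 at E10.5 and 6.24 at E9.7, which lies past the limit on every array. Of 21 axon guidance genes (median 0.29), the Eph receptors Epha4 and Epha3 differed by 1.07 and 0.80, and 2 further Epha4 probe sets, at 1.12 and 1.42, lay past the limit on every array. Of 14 matrix proteases and inhibitors (median 0.29), the protease Adamts20 differed by 1.27, and Adam12 averaged 6.22 at E10.5 and had 7.22 at E9.7, so members of this list lay in both directions. The 15 imprinted growth genes had a median of 0.10, with the zinc finger factor Plagl1 at 0.78 and Igf2 at 0.29. Among 7 muscle precursor genes (median 0.24), Pax3, a factor of muscle and crest precursors, averaged 6.25 at E10.5 and had 5.15 at E9.7, with 2 further probe sets past the limit at 1.60 and 2.24, and Msc (musculin) differed by 0.84. Tcf21, another factor of head muscle precursors, differed by -0.92, and Met, the receptor of hepatocyte growth factor, by -0.98. Of the remaining genes with the highest and lowest differences, Rtl3, derived from a retrotransposon, differed by 3.01, Slitrk6, a leucine-rich membrane protein, by 2.23, and Dlg2, a synaptic scaffold, by 2.18. Rtl3 and Dlg2 had 4.47 and 3.13 at E9.7, under the filter level, and passed it through E10.5 alone. Plcxd3 and Mcrip2 differed by -1.74 and -1.63, and Plcxd3 passed the filter through E9.7 alone.

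The later medial samples place these levels in a longer series, from 2 E11.5 arrays and 1 E14.5 array that is labelled as tongue and as anterior tissue. The E14.5 array stood apart from the others in its control signals: its 3' minus 5' difference for actin was 1.22, against 0.26 to 0.49 on the other arrays, and its spiked-in controls differed from the E9.7 array by 1.58 on average, against 0.102 to 0.407 for the other arrays. The part of this in the E14.5 levels was not tested. The 2 E11.5 arrays also differed, with deposited medians of 2.47 on replicate 1 and 5.23 on replicate 2. Their 18S controls were 11.4 and 7.51 after normalization. The first E11.5 value given below is that of replicate 1, and the part of its low signal in the E11.5 levels was not tested. Lin28a had 3.17 and 3.48 at E11.5 and 2.44 at E14.5, Trim71 5.90 and 5.31 and then 3.83, and Prtg 6.39 and 6.55 and then 4.64. These 3 genes had their highest signal at E9.7 and a lower one at each later stage. Osr1 had 11.26 and 10.99 at E11.5 and 7.92 at E14.5, so that its E11.5 arrays stood above those of all other medial stages. Col6a3 had 7.46 and 8.24 at E11.5 and 11.76 at E14.5, and Igf1 10.13 and 10.20 and then 10.26. Lum had 7.07 and 7.08 at E11.5, below all 3 E10.5 arrays, and 10.58 at E14.5. Cxcl14 had 2.54 and 3.54 at E11.5 and 3.10 at E14.5, under the filter level on all 3 arrays. No gene was chosen or tested on these later stages here.

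**Figure D4:**
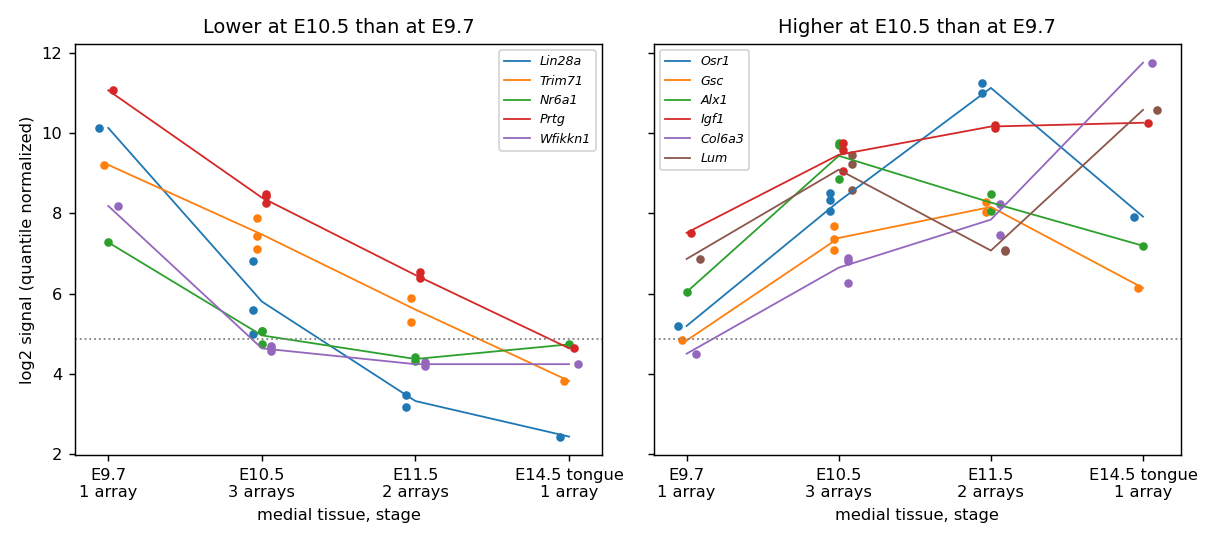
Log2 signals of 11 genes in medial tissue by stage, with 1 array at E9.7, 3 at E10.5, 2 at E11.5 and 1 of E14.5 tongue; points are arrays, slightly offset by gene, and lines join the stage means. Lin28a and Prtg decline over the stages, Osr1 peaks at E11.5, and Col6a3 and Lum are highest at E14.5; the dotted line is the filter level of 4.86.

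The lateral piece was measured on other arrays at the same stages, with 3 at E10.5 and 1 at E9.7. Embryos were pooled per time point, so both pieces may come from the same embryos. Over the genes examined in medial tissue, 98 were counted higher (0.856%) and 43 lower (0.376%) at E10.5 in lateral tissue, 141 in all (1.23%). Both pieces shared 35 genes counted higher, which were 47.3% of the medial and 35.7% of the lateral list, and 16 counted lower, 38.1% and 37.2%. Lin28a had 6.60, 6.22 and 6.60 in lateral tissue at E10.5 and 10.42 at E9.7, a difference of -3.95. Prtg, Trim71, Nr6a1 and Wfikkn1 were likewise counted lower in both pieces, and Osr1, Gsc, Tbx22, Igf1, Aldh1a2 and Col6a3 higher in both. The lateral difference had the medial sign for 70 of the 74 genes counted higher and 40 of the 42 counted lower. The same agreement was not counted over all genes examined, so these numbers stand without a background. The lone lateral E9.7 array correlated with the medial E9.7 array at 0.987, against 0.836 to 0.979 for the other arrays. The part of this likeness in the shared signs was not tested.

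Alx1 was not counted in lateral tissue, where it averaged 4.69 at E10.5 (SD 0.28, n = 3) and had 4.40 at E9.7. Cavin2 had 4.39, 3.97 and 3.78 there at E10.5 and 4.19 at E9.7, and Lum 7.17, 7.20 and 7.07 at E10.5 and 7.02 at E9.7. Bmper, a secreted BMP-binding protein that was singled out after its values were seen, was the only gene counted in opposite directions. In medial tissue it had 3.89, 4.13 and 3.96 at E10.5 and 5.33 at E9.7, and in lateral tissue 6.89, 6.19 and 6.24 at E10.5 and 4.37 at E9.7. The difference between the medial and the lateral change was tested with limma over all 11 arrays, which assumes that the lone E9.7 arrays vary like the replicated groups. It called 0 of 11445 genes (0%) at an adjusted p under 0.05, and 221 genes had an unadjusted p under 0.05. The smallest adjusted p was 0.248, for Fabp7, with a medial minus lateral change of -2.20. For Alx1, Cavin2, Rspo2, Car4 and Bmper the adjusted p was 0.315 in limma, with medial minus lateral changes of 3.10, 2.54, 1.53, -2.44 and -3.41, and for Lum it was 0.502, with 2.09. Without medial E10.5 replicate 1 the test called 1 gene (Lum, 2.35, limma adjusted p 0.0464), and without lateral E10.5 replicate 3 it called 1 gene (Car4, -2.68, limma adjusted p 0.0310). With centred values it called Bmper, Alx1 and Car4, at limma adjusted p of 0.00291, 0.0156 and 0.0357. No change is therefore described here as particular to the medial piece.

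**Figure D5:**
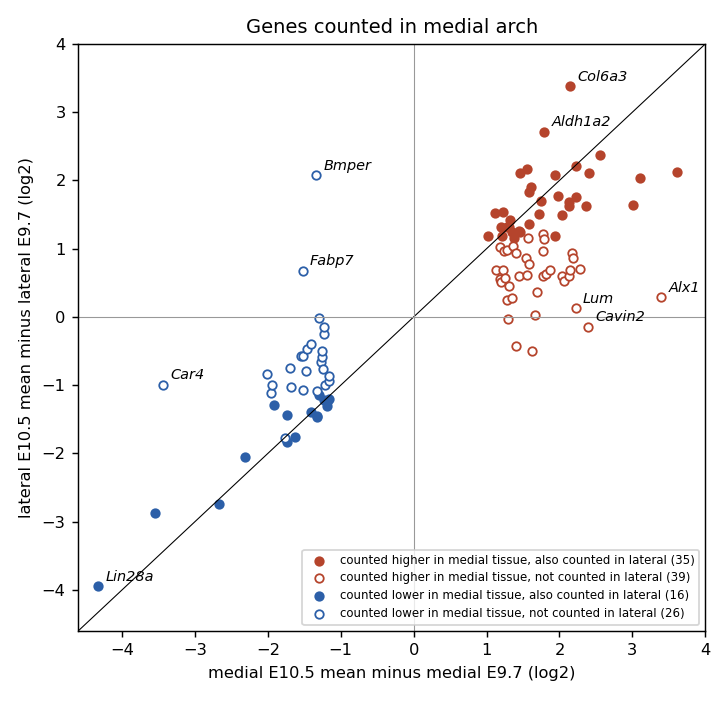
Each circle is 1 of the 116 genes counted in medial tissue, with its medial E10.5 minus E9.7 difference on the horizontal axis and its lateral difference on the vertical axis (log2). Filled circles were also counted in the same direction in lateral tissue (35 higher in red, 16 lower in blue), open circles were not, and the diagonal marks equal differences. Bmper lies at -1.33 in medial and 2.07 in lateral tissue, and Alx1 at 3.39 and 0.29.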

How the data were processed

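Gene expression was measured on 11 Affymetrix arrays of 45101 probe sets. The authors deposited log2 signals, made with Affymetrix Expression Console 1.1 per the submitters' processing notes; the algorithm is not given in the sources used here, and the log base was inferred from the range of 0.0887 to 14.5. The arrays differed in scale as deposited: medial E10.5 replicate 1 and 1 E11.5 array had far lower medians. They were therefore quantile normalized here across the 11 arrays (Python 3.11.15, pandas 2.3.3, numpy 2.4.6). The number of arrays limits the precision.

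Probe sets with 1 gene symbol (34958 of 45101; 932 had several and 9211 none) were named through RefSeq (assembly GRCm38.p6, names only), by Entrez ID for 34754, which left 18194 genes, each taken from its brightest probe set by the mean over all arrays. A gene was examined where the E9.7 value or the E10.5 median reached the 50th percentile of all values (4.86). No detection calls were used, so dim signals are given as measured.

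The E10.5 and E9.7 values were compared by the 2-fold count, with a limma fit as an alternative. The difference between the medial and lateral changes was fitted with limma 3.58.1 in R 4.3.3 (1 mean per group, Benjamini-Hochberg adjustment over all genes examined); the fit was tested on simulated data. Gene lists (42 lists, 623 genes, 589 with a probe set, 470 examined) are described by counts and medians. Named genes are the 15 highest and 15 lowest differences among counted genes with a gene name, up to 6 members per list (counted members first), and all members of small lists. Other members of the lists, and genes at the limit of the count or with opposite directions in the pieces, were named after their values were seen. The comparison, its members and the lists were chosen with earlier results of these data known.

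Promoters came from a RefSeq table of windows of 300 bases; motifs were sought on both strands. Alternatives were other scalings, filters, probe set summaries and thresholds, limma for the medial comparison, the replicate number as a block, and leaving out each E10.5 array.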

Additional observations from a re-analysis of the deposited data

How the results depend on the processing

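Counts are given as higher and lower at E10.5, against 74 and 42 in the report. The deposited values without normalization gave 0 and 57, with a median of all genes of -1.03, and values centred on each array's median gave 54 and 76. Quantile normalization without the 2 arrays of low signal gave 137 and 67, and over the 4 arrays alone 76 and 46. The filter at the 75th percentile gave 40 and 23, on the mean of the arrays 69 and 30, and no filter 75 and 44. The mean of all probe sets gave 55 and 36. Limits of 1.5-fold and 4-fold gave 238 and 176, and 7 and 5. The mean of the E10.5 values gave 141 and 91, E10.5 replicate 2 alone 182 and 88, and limma 115 and 63. Leaving out 1 E10.5 array gave 85 to 136 higher and 48 to 66 lower, the most without replicate 1. Using fewer E10.5 arrays, their mean, a lower limit or no filter can only keep or add counted genes. A higher limit or the filter at the 75th percentile can only keep or remove them. The cause of the other shifts was not tested.

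None of the 45 counted genes that the naming rule gave changed sign under the settings of the count in which it was examined. Where a setting changed only the limit, the filter or the E10.5 arrays used, the count itself had fixed the sign. A sign could change only with other scalings or with the mean of all probe sets. Counted genes named outside the naming rule were not recomputed. Dhrs3, Hey2, Cxcl14, Fbln2 and Rgs5 were no longer counted with centred values, and Dcn (1.15), Fst (1.44) and Fbln2 (0.71) with the mean of all probe sets. For the difference between medial and lateral changes, limma called 0 genes with the deposited values, no filter, probe set means, trend and robust options, and without the arrays of low signal; the centred values called 3 (Bmper, Alx1 and Car4, adjusted p 0.00291, 0.0156 and 0.0357), and leaving out 1 array called 0 to 1. With the replicate number as a block it called 0, and 376 genes had an unadjusted p under 0.05. The same replicate block in the medial limma fit gave 149 higher and 91 lower genes. The medial count has no paired form, since the E9.7 array carries no replicate number. Low signals limit the folds of genes that were dim at one stage.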
